A study of Rattus norvegicus with 9 samples.

Results

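miR-146a-5p and miR-155-5p are the 2 microRNAs (miRNAs) described here, of 201 listed in the deposited miRNA table of exosomal RNA from rat peritoneal macrophages. They were chosen by name, as the rno-miR-146a-5p and rno-miR-155-5p entries of that table, together with the sequence tags given to them in the files of single libraries. miRNAs are short RNAs that guide Argonaute proteins to messenger RNAs, mainly through the seed near their 5′ end, and lower the output of those messages. Both miRNAs are induced in macrophages when Toll-like receptors sense lipopolysaccharide (LPS), a bacterial cell wall component, and switch on NF-κB. miR-146a-5p targets the signalling adaptors Irak1 and Traf6 and restrains the response, while miR-155-5p targets Socs1 and Inpp5d (SHIP1), which are brakes on it. Both are also found in exosomes, the small vesicles that cells release and other cells can take up.

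Cells were collected by peritoneal lavage of untreated rat and cultured in RPMI-1640 with 10% fetal bovine serum. In the LPS+AS-IV group, 150 µM astragaloside IV (a saponin from Astragalus) was present for 24 h and LPS was then added. The LPS group had LPS alone, at 100 ng/ml for 6 h, and the Control group had 0.1% dimethyl sulfoxide (DMSO) for 24 h. DMSO was also the solvent of both LPS and astragaloside IV, so all 3 groups had it, but the time it was present differed by group and cannot be told apart from treatment. Each group had 3 small RNA libraries made from exosomal RNA and read on the BGISEQ-500 platform. The labels give no age, sex, strain or number of animals and do not state whether replicates are separate animals or cultures. The p-values therefore measure the spread between these samples alone, and that spread may be technical.

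The mature sequences, from RefSeq on build GRCr8, show which seed each miRNA carries, with the seed (bases 2 to 8) in capitals. miR-146b-5p is included because it has the same seed as miR-146a-5p.
miR-146a-5p: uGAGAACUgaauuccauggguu
miR-146b-5p: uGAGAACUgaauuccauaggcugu
miR-155-5p: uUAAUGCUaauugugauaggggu
miR-146a-5p lies at chr10:28350053-28350074 on the minus strand, in an annotated lncRNA, LOC134480673. miR-155-5p lies at chr11:37261117-37261139 on the plus strand, in its host lncRNA Mir155hg. miR-146b-5p is on chromosome 1, in a locus annotated as C1h10orf95. Counted from the 5′ end in DNA letters, miR-146b-5p differs from miR-146a-5p by G18A and T21C and runs 2 bases longer.

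Few reads were in the miRNA table. Reads assigned to any RNA class numbered 9527483, 9098417 and 6699947 in LPS+AS-IV, 9305041, 3484099 and 8936275 in LPS, and 7223406, 5449156 and 8215970 in Control. The miRNA table held 0.162% to 1.89% of them in 8 libraries and 8.16% in LPS+AS-IV 3, which stands apart in several results. Of the 6 macrophage and myeloid marker miRNAs, 5 were in the table and miR-142-3p was not listed. Their summed share of table reads was 1.91% to 3.44% in LPS+AS-IV, 1.85% to 2.78% in LPS and 2.0% to 2.71% in Control. The share of 3 lymphocyte markers was higher, at 11.2% to 21.6%, 14.7% to 18.5% and 12.6% to 16.7% in the same groups, and that of erythroid markers was 3.04% to 3.54%, 2.72% to 3.97% and 4.07% to 4.78%. The 2 endothelial markers held 0.415% to 1.23% in LPS+AS-IV, 0.195% to 0.472% in LPS and 0.745% to 1.38% in Control. The 2 platelet markers, one shared with the endothelial list and the other with the myeloid list, held 0.415% to 1.37%, 0.365% to 0.515% and 0.781% to 1.47%. The erythroid, endothelial and platelet shares of LPS thus lay wholly below those of Control. In LPS 1 and LPS 2 the endothelial and platelet shares were the same values, 0.365% and 0.472%, so these 2 lists are not independent. Only 1 of the 2 endothelial markers was detected in each LPS+AS-IV and Control library, and 1 to 2 in LPS libraries. Of 94 tested miRNAs, with deposited counts scaled between libraries as described below, 11.7% had LPS wholly below Control and 7.45% wholly above. The epithelial and mesenchymal lists held at most 0.323%. Fewer vesicles and less of a miRNA per vesicle cannot be told apart in such bulk libraries, nor can the cells the vesicles came from.

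miR-146a-5p was present in every library, and its level did not separate the groups. The table held 488, 4198 and 2485 reads in LPS+AS-IV, 725, 717 and 1462 in LPS, and 1872, 830 and 1254 in Control. Scaled to counts per 1000000 miRNA counts with TMM factors (CPM), its levels were 35196, 63995 and 4964 for LPS+AS-IV, 26087, 12275 and 23441 for LPS, and 40416, 24790 and 16853 for Control. The 3 groups overlapped, and the LPS+AS-IV libraries alone spanned both the highest and the lowest value. Group means were 34718 ± 29518 CPM in LPS+AS-IV, 20601 ± 7331 CPM in LPS and 27353 ± 11989 CPM in Control (SD, n = 3 each).

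**Figure D1:**
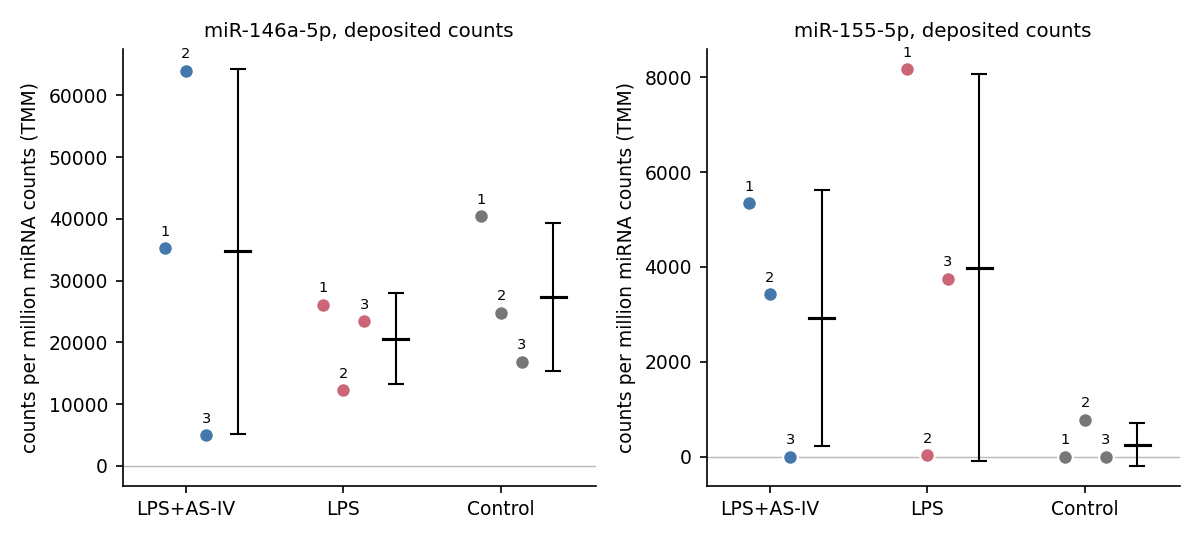
Deposited counts of miR-146a-5p (left) and miR-155-5p (right) per library, in CPM, with the replicate number above each point and the mean ± SD beside each group. miR-146a-5p spans 4964 to 63995 CPM within LPS+AS-IV alone, and miR-155-5p is at 0 in LPS+AS-IV 3, Control 1 and Control 3.

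The log2 fold change of miR-146a-5p in LPS over Control was -0.41 (SE 0.65, adjusted p = 0.964 by edgeR's quasi-likelihood test). It was 0.75 in LPS+AS-IV over LPS (SE 0.65, adjusted p = 0.963 by edgeR) and 0.34 in LPS+AS-IV over Control (SE 0.65, adjusted p = 0.981 by edgeR). None of the 3 differences was larger than the spread between replicates. Single libraries set the direction: without LPS 2 the change in LPS over Control was 0.08, and without Control 1 it was 0.21. Without LPS+AS-IV 2 it was -0.13 in LPS+AS-IV over LPS and -0.47 in LPS+AS-IV over Control, and without Control 3 the change in LPS+AS-IV over Control was -0.07. Across the table, 1.06% of 94 tested miRNAs passed in LPS against Control, 0% in LPS+AS-IV against LPS and 2.13% in LPS+AS-IV against Control, and neither miR-146a-5p nor miR-155-5p was among them. For the 0 calls in LPS+AS-IV against LPS, edgeR gave 3 miRNAs with an unadjusted p under 0.05, and DESeq2 called 1.

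In the table miR-155-5p looked absent from most Control libraries. It had 74, 225 and 0 reads in LPS+AS-IV, 227, 2 and 234 in LPS, and 0, 26 and 0 in Control. On the CPM scale the values were 5337, 3430 and 0 in LPS+AS-IV, 8168, 34.2 and 3752 in LPS, and 0, 777 and 0 in Control. LPS 2, with 2 reads, lay among the Control values, so the groups overlapped. The fitted log2 fold change was 3.96 in LPS over Control (SE 2.59, adjusted p = 0.854 by edgeR), -0.45 in LPS+AS-IV over LPS (SE 2.29, adjusted p = 0.963 by edgeR) and 3.51 in LPS+AS-IV over Control (SE 2.54, adjusted p = 0.981 by edgeR). Without LPS 1 the change in LPS+AS-IV over LPS was 0.43. With only 26 Control reads, the fitted folds over Control have wide errors.

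These zeros depended on which tags the table counts. For both miRNAs it equalled the sum of the tags labelled mature, with a deposited score of 0, in 9 of 9 libraries. Other tags of the same miRNA, with another end or another base, were mostly labelled hairpin, all with a score of 1, or placed in the miRNA's family of Rfam, a database of RNA families. Neither of these labels enters the table. Collecting the tags of any label that align to each miRNA gave 31258 reads of miR-146a-5p, of which the table holds 44.9%, and 5899 reads of miR-155-5p, of which it holds 13.4%.

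The 5 most abundant tags of the rat sequence of each miRNA show where the reads went, with the 3′ end after base 18, where the tags differ, in capitals. Those of miR-146a-5p were, from most to least abundant:
miR-146a-5p mature end: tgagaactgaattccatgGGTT
miR-146a-5p with 1 added T: tgagaactgaattccatgGGTTT
miR-146a-5p 1 base shorter: tgagaactgaattccatgGGT
miR-146a-5p with a templated A: tgagaactgaattccatgGGTTA
miR-146a-5p with 2 added T: tgagaactgaattccatgGGTTTT
The mature-end tag held 13480 reads over the 9 libraries, and the tag with 1 added T held 6889. The tag 1 base shorter held 4413 reads, the one with a templated A held 1859, and the one with 2 added T held 1645. The miR-146a hairpin continues with A after the mature end, so the added T is not in the genome, while the A is. Those of miR-155-5p, again from most to least abundant, were:
miR-155-5p 2 bases longer: ttaatgctaattgtgataGGGGTTT
miR-155-5p mature end: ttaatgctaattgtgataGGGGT
miR-155-5p 1 base longer: ttaatgctaattgtgataGGGGTT
miR-155-5p with A at the end: ttaatgctaattgtgataGGGGA
miR-155-5p 2 bases shorter: ttaatgctaattgtgataGGG
The tag 2 bases longer than the mature form was the most abundant of the rat sequence, with 1357 reads, all placed in Rfam. The mature-end tag had 695 reads and the tag 1 base longer, labelled hairpin, had 669. The miR-155 hairpin continues with U after the mature end, so both longer tags match the genome. Mature-end reads were 74, 225 and 0 in LPS+AS-IV, 227, 2 and 141 in LPS, and 0, 26 and 0 in Control. Reads of the tag 2 bases longer were 109, 139 and 0 in LPS+AS-IV, 212, 175 and 557 in LPS, and 42, 49 and 74 in Control. LPS 2, Control 1 and Control 3, which the table lists at 2, 0 and 0 reads, thus held miR-155-5p with other ends than the mature one.

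A second group of miR-155-5p tags carried a C at base 12, written T12C with positions counted from the 5′ end of the RefSeq rat sequence. T12C reads numbered 199, 124 and 1260 in LPS+AS-IV, 235, 303 and 160 in LPS, and 20, 167 and 99 in Control. They made up 50.1%, 16.2% and 100% of miR-155-5p reads of all labels in LPS+AS-IV, 25.4%, 52.2% and 14.0% in LPS, and 10.2%, 47.0% and 35.5% in Control. The share overlapped between groups and was highest in LPS+AS-IV 3, where 0 of 1260 reads had the rat sequence, which allows a rat share of up to 0.238% (counting error only). In total T12C had 2567 reads, against at most 2 reads in one library of any other substitution of miR-155-5p before its 3′ end. Tags with another last base, such as the one ending in A, are counted here as end forms.

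T12C is also the base difference between rat and human miR-155-5p, and cattle miR-155-5p shares the human base, as background. The medium held 10% fetal bovine serum. The origin of these reads was not tested. Of the 1260 T12C reads in LPS+AS-IV 3, 1254 ended 1 T after the mature end, and this end form also held 300 of the 303 T12C reads in LPS 2.

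**Figure D2:**
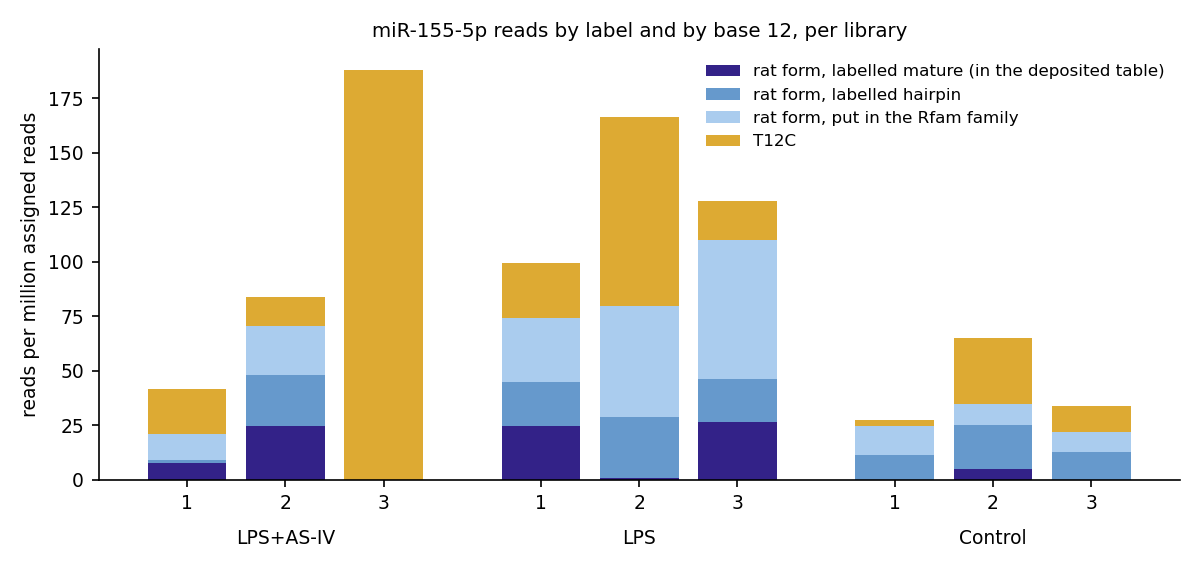
miR-155-5p reads of all labels in each library, in RPM (reads per 1000000 assigned reads), stacked by the authors' label for reads of the rat sequence and by T12C. The part the deposited table counts is 0 in LPS+AS-IV 3, Control 1 and Control 3, and LPS+AS-IV 3 consists of T12C alone.

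Reads of the rat sequence over all labels are called the rat form from here on, and scaled to assigned reads they were highest in LPS. They numbered 198, 640 and 0 in LPS+AS-IV, 690, 277 and 982 in LPS, and 177, 188 and 180 in Control. Per 1000000 assigned reads (RPM) this was 20.8, 70.3 and 0 in LPS+AS-IV, 74.2, 79.5 and 110 in LPS, and 24.5, 34.5 and 21.9 in Control. Each LPS library lay above each Control library and each LPS+AS-IV library. LPS+AS-IV and Control overlapped.

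The mean level of the rat form was 30.4 ± 36.1 RPM in LPS+AS-IV, 87.8 ± 19.3 RPM in LPS and 27.0 ± 6.65 RPM in Control (SD, n = 3 each). The exact two-sided permutation p was 0.1 for LPS against Control and 0.1 for LPS+AS-IV against LPS, the smallest that 3 against 3 libraries allow, and 0.525 after Benjamini-Hochberg adjustment over the 42 permutation tests run. It was 1 for LPS+AS-IV against Control in the same exact test. Among 105 miRNAs recounted over all labels in the same way and scaled to assigned reads, 1.9% had LPS libraries wholly above Control, as miR-155-5p did, and 10.5% wholly below. In LPS+AS-IV against LPS, 2.86% lay wholly below, as miR-155-5p did, and 5.71% wholly above. As summed shares of table reads, another denominator, the erythroid, endothelial and platelet markers given above separated LPS from Control in the opposite direction. None of these markers was among the miRNAs wholly below Control in this recount. Their part in this result was not tested. The margin between LPS+AS-IV 2 and LPS 1 was within counting error, since their 95% exact Poisson intervals were 65.0 to 76.0 and 68.7 to 79.9 RPM. T12C matters for one comparison: with those reads included, levels were 41.7, 84.0 and 188 RPM in LPS+AS-IV, 99.4, 166 and 128 in LPS, and 27.3, 65.1 and 34.0 in Control. LPS stayed wholly above Control, but LPS+AS-IV overlapped LPS.

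Set against miR-146a-5p in the same library, a ratio that needs no library size, the rat form again lay apart in LPS. There were 16.8, 7.67 and 0 rat-form reads per 100 reads of miR-146a-5p in LPS+AS-IV, 35.9, 22.9 and 23.0 in LPS, and 5.59, 9.76 and 6.26 in Control. Each LPS library was above the 6 others. The exact permutation p was again 0.1 for both comparisons with LPS (0.525 adjusted) and 0.8 for LPS+AS-IV against Control. Of 104 miRNAs set against miR-146a-5p, 3.85% had LPS libraries wholly above Control and 8.65% wholly below, while 1.92% had LPS+AS-IV libraries wholly below LPS and 5.77% wholly above. This ratio shows only that the 2 miRNAs differed unequally between groups.

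The separation did not hold per miRNA read. Rat-form reads per 10000 reads labelled mature or hairpin were 74.5, 52.1 and 0 in LPS+AS-IV, 156, 23.8 and 89.0 in LPS, and 22.7, 33.7 and 13.7 in Control. LPS 2 then lay below Control 2 and below LPS+AS-IV 1 and 2, and the exact permutation p for LPS against Control was 0.2. Reads labelled mature or hairpin numbered 26586, 122787 and 964419 in LPS+AS-IV, 44259, 116235 and 110392 in LPS, and 77964, 55724 and 130932 in Control. Their share of the assigned reads, which sets the 2 denominators apart, thus differed between libraries, and its part in this result was not tested.

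**Figure D3:**
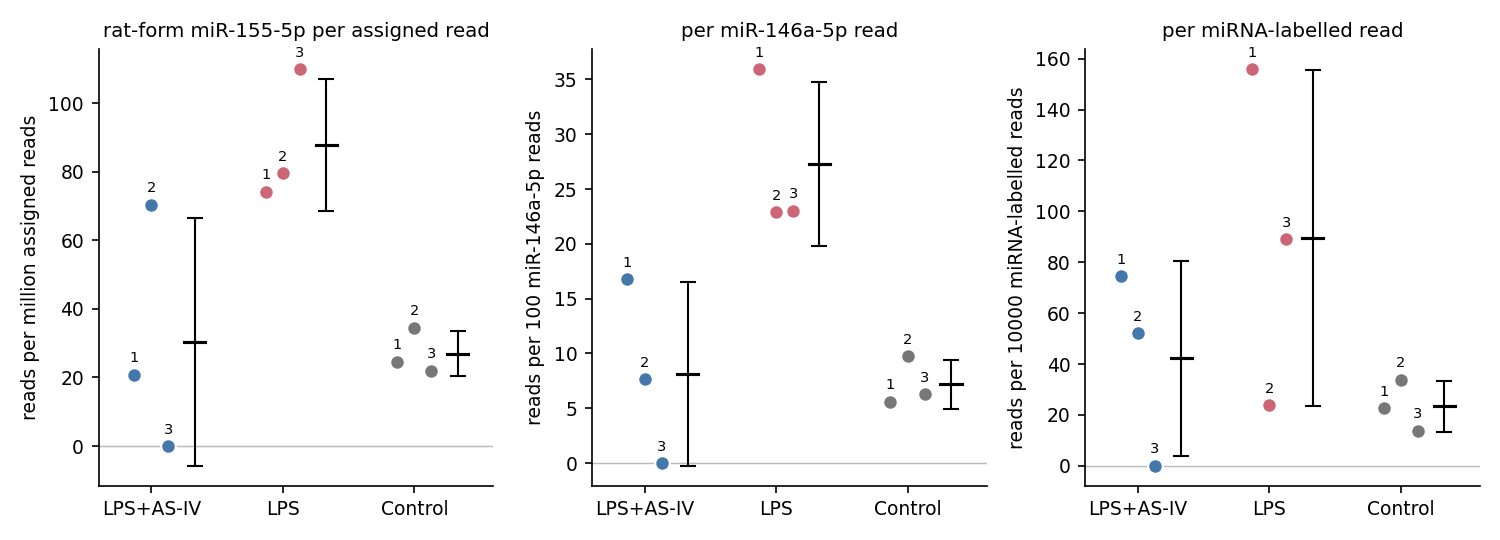
Rat-form miR-155-5p of all labels in RPM (left), per 100 reads of miR-146a-5p (middle) and per 10000 miRNA-labelled reads (right), with the replicate number above each point and the mean ± SD beside each group. The 3 LPS libraries are the highest in the left and middle panels, and LPS 2 falls to 23.8, among the Control values, in the right panel.

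The recount over all labels, from tags that hold bases 2 to 18 of each mature sequence, was put through the same edgeR test. It was scaled with TMM factors rather than to assigned reads. The log2 fold change of miR-155-5p was 1.91 in LPS over Control (SE 1.56, adjusted p = 0.979 by edgeR), smaller than the 3.96 of the deposited counts and with a smaller SE. It was -1.04 in LPS+AS-IV over LPS and 0.87 in LPS+AS-IV over Control, with adjusted p of 0.959 and 0.996 by edgeR. Scaled to assigned reads instead, the change of miR-155-5p was 1.70 in LPS over Control (SE 2.08, adjusted p = 0.988 by edgeR). In LPS+AS-IV over LPS it was -1.53 on that scale (SE 2.07, adjusted p = 0.632 by edgeR). In CPM of the TMM-scaled recount with all 9 libraries, miR-155-5p in LPS 2 (2701) lay below Control 2 (3465), so LPS and Control overlapped in CPM. LPS+AS-IV 3 is in neither group of LPS over Control, but it shares the fit, the TMM factors and the filter on low counts. Without that library, when 140 miRNAs rather than 105 passed the filter, the change in LPS over Control was 1.82 (SE 0.57, adjusted p = 0.0441 by edgeR), and miR-155-5p was the only one of the 140 to pass upward (0.714%), beside 4 that passed downward (2.86%). With any one of the 8 other libraries left out, the adjusted p by edgeR was 0.710 to 0.999 and the change 1.21 to 2.35. Without LPS+AS-IV 3 the change in LPS+AS-IV over LPS was -0.59 (SE 0.63, adjusted p = 0.745 by edgeR). The 4 miRNAs that passed downward in LPS over Control without that library were miR-127-3p, miR-17-5p, miR-411-5p and miR-451-5p. Of these, miR-451-5p is an erythroid marker (log2 fold change -0.85, adjusted p = 0.0441 by edgeR). With all 9 libraries, miR-451-5p was at -0.75 (adjusted p = 0.260 by edgeR).

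**Figure D4:**
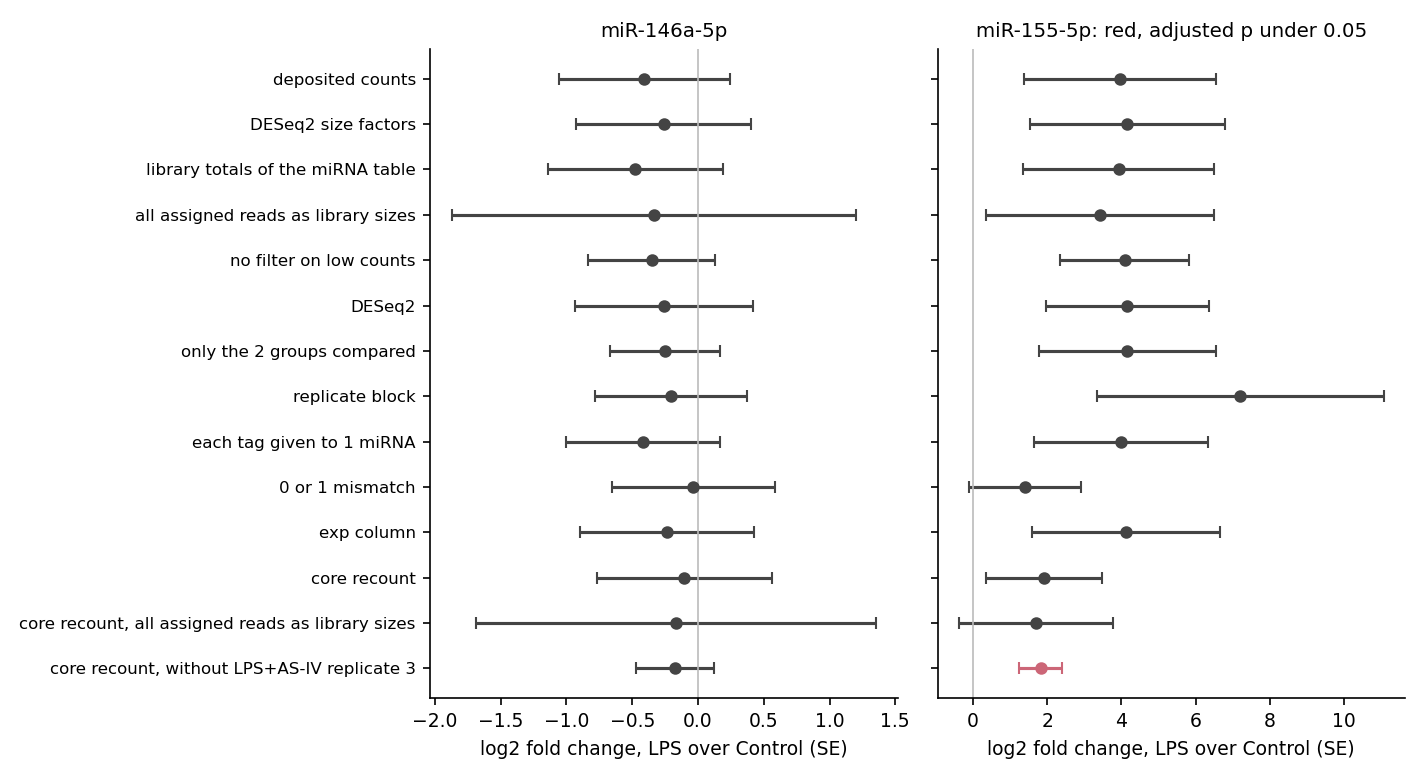
Log2 fold change of miR-146a-5p (left) and miR-155-5p (right) in LPS over Control with its SE, for the deposited counts, the alternatives that keep all 9 libraries or only the 2 groups, and the recount without LPS+AS-IV 3. miR-155-5p lies above 0 in every setting drawn and passes an adjusted p of 0.05 (red) only in the recount without LPS+AS-IV 3, at 1.82, whereas each SE bar drawn for miR-146a-5p crosses 0.

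Counted over all labels, miR-146a-5p still did not separate the groups. Its levels were 124, 918 and 949 RPM in LPS+AS-IV, 206, 348 and 478 in LPS, and 438, 353 and 350 in Control. LPS+AS-IV held both the lowest and the 2 highest libraries, and Control was the narrowest group. Means were 664 ± 468 RPM in LPS+AS-IV, 344 ± 136 RPM in LPS and 381 ± 50.2 RPM in Control (SD, n = 3 each), with exact permutation p of 0.4 for LPS+AS-IV against LPS and 0.7 for LPS against Control. The recount gave log2 fold changes of -0.10 in LPS over Control, 0.48 in LPS+AS-IV over LPS and 0.38 in LPS+AS-IV over Control.

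The end forms of miR-146a-5p differed widely between libraries. The mature form made up 41.3%, 46.9% and 38.9% of its reads of all labels in LPS+AS-IV, 35.5%, 59.2% and 32.2% in LPS, and 56.0%, 43.0% and 42.8% in Control. Forms with added T that the genome lacks, as terminal uridylyl transferases can make, held 37.8%, 31.1% and 18.4% in LPS+AS-IV, 37.1%, 8.09% and 34.0% in LPS, and 24.0%, 30.2% and 29.3% in Control. LPS 2 was lowest for them and highest for the mature form. Forms shortened at the 3′ end held 10.9%, 7.83% and 36.2% in LPS+AS-IV, 9.53%, 19.0% and 7.70% in LPS, and 3.82%, 7.42% and 12.4% in Control. LPS+AS-IV 3 was again far from the others. The groups overlapped for each of these 3 forms, with exact permutation p of at least 0.4.

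Some rarer forms of miR-146a-5p did separate LPS+AS-IV from another group. Forms lengthened with bases of the hairpin held 5.08%, 6.64% and 5.39% in LPS+AS-IV, 8.80%, 6.94% and 10.0% in LPS, and 6.95%, 7.94% and 6.51% in Control. LPS+AS-IV lay wholly below LPS and overlapped Control. Tags with an inner substitution held 0.931%, 0.623% and 0.440% in LPS+AS-IV, 1.15%, 1.57% and 4.07% in LPS, and 1.07%, 1.97% and 1.57% in Control, so LPS+AS-IV lay wholly below both. Tags with another added or exchanged end held 3.98%, 3.70% and 0.598% in LPS+AS-IV, 1.93%, 5.202% and 7.05% in LPS, and 4.17%, 7.32% and 4.77% in Control, where LPS+AS-IV lay below Control alone. Each of these 4 separations had an exact permutation p of 0.1, the smallest possible, and 0.525 adjusted over the 42 tests. Their margins were narrow and were not tested against counting error. Inner substitutions had 11 of 1182 reads in LPS+AS-IV 1, against 34 of 3167 in Control 1 and 22 of 1920 in LPS 1. The other ends had 47 reads in LPS+AS-IV 1 and 132 in Control 1. Lengthened forms had 554 of 8349 reads in LPS+AS-IV 2 and 84 of 1211 in LPS 2. Forms with a shifted 5′ end held at most 5.99% and overlapped in each comparison.

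**Figure D5:**
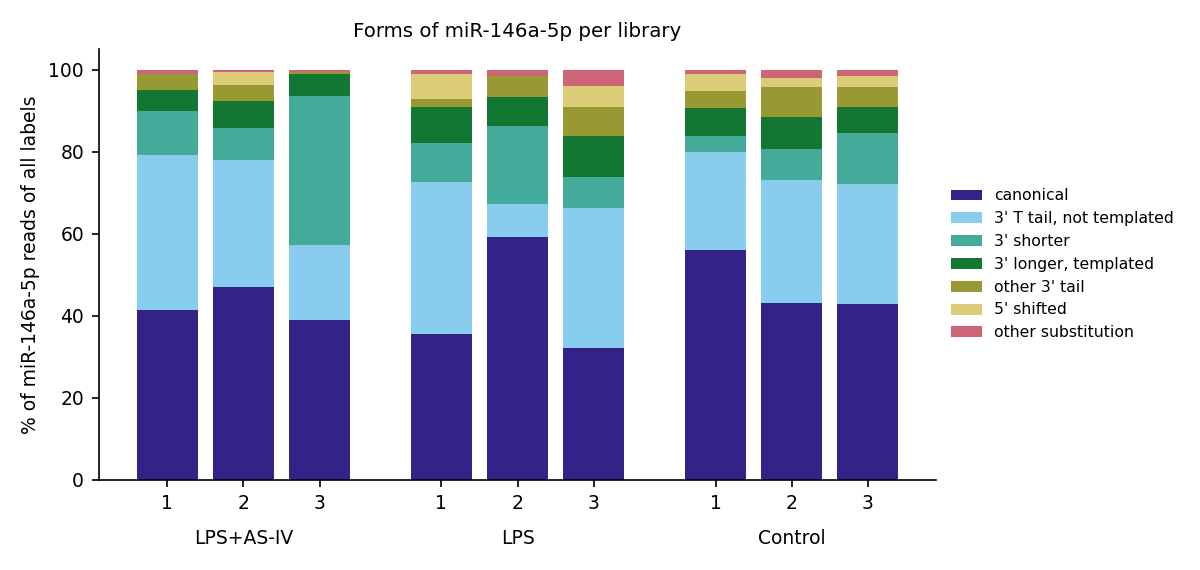
Forms of miR-146a-5p as a percentage of its reads of all labels in each library. LPS+AS-IV 3 has the most 3′ shortened reads, 36.2%, and LPS 2 has the fewest reads with added T, 8.09%.

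Within the tags labelled mature, 1 sequence held nearly all miR-146a-5p reads, from 93.2% to 100% over the 9 libraries. Its mean share differed by -1.48 percentage points in LPS against Control and by 1.55 in LPS+AS-IV against LPS, with exact permutation p of 0.6 and 1. Hairpin-labelled reads made up 50.9% ± 8.96 of mature and hairpin reads in LPS+AS-IV, 50.9% ± 14.1 in LPS and 45.4% ± 9.72 in Control (SD, n = 3 each). The groups overlapped, with exact permutation p of at least 0.5. Neither miR-146a-3p nor miR-155-3p, the other strand of each hairpin, had a tag in any library.

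miR-146b-5p, which shares the seed of miR-146a-5p, was sparse. The table held 21, 63 and 0 reads in LPS+AS-IV, 0, 164 and 357 in LPS, and 0, 31 and 2 in Control. LPS 2 and LPS 3 were the highest and LPS 1 was at 0, so the groups overlapped. Its log2 fold change was 3.17 in LPS over Control (SE 2.72, adjusted p = 0.964 by edgeR) and -1.80 in LPS+AS-IV over LPS (SE 2.58, adjusted p = 0.963 by edgeR).

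The list of miRNAs known to respond to LPS in macrophages, which includes both members, gave no call. Of 22 listed, 14 were in the table and 12 passed the filter on low counts. Of those 12, 6 were higher and 6 lower in each comparison, and 0 passed by edgeR in either direction. Their median log2 fold change in LPS over Control was -0.04, like the -0.04 of all tested miRNAs. The medians were 0.31 for the list against 0.19 for all in LPS+AS-IV over LPS, and 0.03 against 0.21 in LPS+AS-IV over Control. In the recount, with 14 of the list tested and again 0 passing by edgeR, the medians were -0.07 in LPS over Control (6 higher, 8 lower), -0.33 in LPS+AS-IV over LPS (6 higher, 8 lower) and 0.17 in LPS+AS-IV over Control (9 higher, 5 lower), against -0.07, 0.10 and 0.08 for all. The list's median in LPS+AS-IV over LPS thus changed sign with the counting. miR-222-3p, which targets the cell cycle inhibitor p27, averaged 6313 ± 2510 CPM in LPS+AS-IV, 12082 ± 2702 CPM in LPS and 6720 ± 2601 CPM in Control (SD, n = 3 each). Its log2 fold change was 0.85 in LPS over Control (SE 0.59, adjusted p = 0.854 by edgeR) and -0.94 in LPS+AS-IV over LPS (SE 0.59, adjusted p = 0.963 by edgeR). miR-21-5p, which targets Pdcd4, averaged 3008 ± 3057 CPM in LPS+AS-IV, 1675 ± 2687 CPM in LPS and 2725 ± 334 CPM in Control, and miR-221-3p averaged 2817 ± 1729, 1721 ± 2966 and 1476 ± 1082 CPM in the same groups (SD, n = 3 each).

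The tested miRNA whose level followed miR-146a-5p most closely over the 9 libraries was let-7c-5p (Pearson r 0.94 of log2(CPM + 1)), followed by let-7f-5p (0.85) and miR-99a-5p (0.84), of 56 compared. For miR-155-5p the nearest of 57 were miR-34a-5p (0.77), miR-122-5p (0.56) and miR-146a-5p itself (0.53). These are descriptions on deposited counts, in which all values of a library share 1 scaling factor. Those of miR-155-5p rest in part on counts of 0 in LPS+AS-IV 3, Control 1 and Control 3 and of 2 in LPS 2. miR-122-5p, a liver and serum marker, was also the only other miRNA besides miR-155-5p whose LPS libraries all lay above Control in the recount per assigned read. The summed share of the 2 liver and serum markers in the table was 0.465% to 0.558% in LPS+AS-IV, 0.320% to 1.02% in LPS and 0.143% to 0.356% in Control, and its part in the miR-155-5p result was not tested.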

How the data were processed

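Counts of 201 mature miRNAs per library were deposited as whole-number read counts with no normalization, per the file headers. A second deposited column of counts, headed exp, entered only an alternative, as its making is not stated in the sources at hand. Files of single libraries held the authors' count and label of each tag of 15 to 45 nt. Their deposited score was 0 for the mature-labelled and 1 for the hairpin-labelled tags of both miRNAs, and a family score for Rfam. Some tags scored 1, such as miR-155-5p 1 base longer, match the RefSeq hairpin fully. The score is thus not a plain count of mismatches to it. Bowtie2 and Rnor_6.0 are named, without a role, per the submitters' processing notes. No per-sample column was left unused.

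Here, tags were aligned to RefSeq hairpins (GRCr8) with a 5′ shift of up to 2 bases and up to 1 other substitution. The recount took tags of 17 to 30 nt. RefSeq sequences serve for names and tag forms, and their GRCr8 positions are not those of the files' build. Deposited counts were tested with the quasi-likelihood test of edgeR 4.0.16 under R 4.3.3, using TMM, filterByExpr and 1 fit over 9 libraries, at a Benjamini-Hochberg adjusted p under 0.05. It tested 94 of 201 miRNAs and was tested on simulated data. Shares and rates were compared by exact permutation (scipy 1.17.1). Alternatives used DESeq2 1.42.0, other library sizes, no filter, a replicate block, other tag rules and left-out libraries. A count of 0 allows 3 reads. Intervals cover counting error only, since PCR reads without molecular identifiers are not independent molecules.

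The members and lists were chosen with earlier results of these data known. Named beside the 2 members, by rule, were their other arms, miR-146b-5p, tested LPS-responsive miRNAs and the 3 nearest patterns. The recount, the end-form shares, the rat-form rates and the leave-one-out recounts were chosen after seeing the data.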

Additional observations from a re-analysis of the deposited data

Results flagged for a closer look

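Reads outside the deposited table stood above the Control libraries for miR-155-5p in 2 ways, each in some of the treated libraries only. Libraries were flagged because they exceeded the highest Control library, and other miRNAs were not examined in this way. T12C reads reached 188 RPM (reads per 1000000 assigned reads) in LPS+AS-IV 3 and 87.0 in LPS 2, against 2.77 to 30.6 in Control. They were within the Control range in LPS+AS-IV 1 and 2 (20.9 and 13.6) and in LPS 1 and 3 (25.3 and 17.9). Rat-form reads placed in the Rfam family are a part of the rat-form levels given above and not a separate result. Such reads were at 22.3 RPM in LPS+AS-IV 2, and 29.4, 50.8 and 63.6 in LPS 1, LPS 2 and LPS 3, against 9.36 to 13.4 in Control. LPS+AS-IV 1, at 11.7 RPM, lay within the Control range, and LPS+AS-IV 3, at 0, lay below it.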

How the results depend on the processing

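No alternative reversed the direction of miR-155-5p in LPS over Control or in LPS+AS-IV over Control. Leaving out single libraries gave log2 fold changes of 2.89 to 11.78 and 2.72 to 11.15 for these comparisons (the upper ends are fits against Control libraries at 0 and no bounds), with 1.21 to 2.35 and 0.30 to 1.29 in the recount. In LPS+AS-IV over LPS it was -1.50 to 0.43, and -1.65 to -0.36 in the recount. In the recount without LPS+AS-IV 3 it passed in LPS over Control (1.82). For miR-146a-5p the ranges were -0.60 to 0.21 in LPS over Control (recount -0.50 to 0.24, with 0.11 without Control 1 and 0.0064 without Control 2), -0.13 to 1.06 in LPS+AS-IV over LPS (recount -0.34 to 0.83) and -0.47 to 0.76 in LPS+AS-IV over Control (recount -0.37 to 0.64).

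Calls in LPS against Control, 1 with the deposited counts, became 2 with table totals, with no filter, with the exp column and with the replicate block, 3 with DESeq2 and with only the 2 groups, and 0 with each tag given to 1 miRNA and in both recounts. They were 1 to 3 with single libraries left out, and 0 to 5 in the recount. Calls in LPS+AS-IV against LPS, 0 at first, became 1 with no filter, DESeq2 or the block, 2 in the recount scaled to assigned reads, and 0 to 1 without single libraries. The 2 calls in LPS+AS-IV against Control became 0 with each tag given to 1 miRNA and in both recounts, and 2 to 3 without single libraries (recount 0 to 0). The causes were not tested.

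Same-numbered libraries correlated at -0.12 to 0.15 and differently numbered ones at -0.18 to 0.23, so pairing by replicate number was not seen. With 3 pairs in each comparison, these values cannot exclude it. With the block, miR-155-5p was 7.21 in LPS over Control, -2.94 in LPS+AS-IV over LPS and 4.27 in LPS+AS-IV over Control (adjusted p = 0.705, 0.927 and 0.944 by edgeR), and the block changed no call of either member. Scaling to assigned reads moved the median of all miRNAs by 1.29 in LPS+AS-IV over LPS and 1.43 in LPS+AS-IV over Control.

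The share of the main miR-146a-5p tag in LPS+AS-IV over Control, 0.07 points, was -1.33 to 2.26 without single libraries and -5.33 over mature and hairpin tags. The hairpin share was -0.96 to 13.04 in LPS over Control and -7.57 to 6.44 in LPS+AS-IV over LPS. Tags with few reads limit miR-155-5p: its 0 reads in the table allow up to 3 reads.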
